A study of Homo sapiens with 9 samples.

Results

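Antisense noncoding genes are long noncoding RNA genes named after the gene on whose opposite strand they lie, with -AS and a number added to that gene's symbol. The set described here was chosen by that name and by level: it holds every autosomal long noncoding gene of this naming type whose normalized count, averaged over the 3 groups, was 50 or more. This gave 345 of the 1742 such genes in the table, or 19.8%, and the table holds 58336 genes in all. Because members were selected on their level, their presence above that floor is a description and not a result.

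The series measured nascent transcription by PRO-seq in MEL624, a human melanoma cell line. Control cells were unmodified MEL624 cells carrying a random guide RNA. They were compared with 2 knockout lines, called clone 1 and clone 2 here (PCIF1 KO1 and PCIF1 KO2), in which the gene PCIF1 was knocked out. Each group had 3 biological replicates, 9 libraries in all, each from the same number of MEL624 cells, with 40000 Drosophila S2 cells mixed in. The deposited table holds 1 mean per group, so no value below has an SD, and no test between groups could be run. Each knockout line is 1 clone, and both comparisons with control share the same control values.

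PRO-seq labels the ends of RNAs that engaged RNA polymerases are extending, so it reads transcription rather than the amount of stable RNA. This suits antisense RNAs, many of which are degraded soon after they are made. Antisense genes often start near the promoter of their partner and are transcribed away from it or across it, and some start inside the partner or beyond its end. Known examples act on chromatin or on transcription of the neighbouring gene in cis, others act elsewhere or have no known role. PCIF1 is the methyltransferase that adds a methyl group to an adenosine next to the mRNA cap, giving the mark m6Am.

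The promoters of 5 members, and of 1 partner, are shown because these members were among those furthest above control in the clones and had an entry in the RefSeq promoter table (GRCh38.p14). Each window runs from 250 bases before to 50 bases after the RefSeq start and reads 5′ to 3′ on the strand of its gene. Capitals mark matches, on either strand, to the CCAAT box, which reads ATTGG on the other strand, and to the ETS core CGGAAG, whose reverse complement is CTTCCG. The TATA box TATAAA and the sterol element core TCACNCCAC were also searched for, and none of the windows shown held them. The windows are CYP51A1-AS1 at chr7:92134313-92134612 on the plus strand, CYP51A1 at chr7:92134428-92134727 on the minus strand, CCDC28A-AS1 at chr6:138773654-138773953 on the minus strand, SPCS3-AS1 at chr4:176320461-176320760 on the minus strand, ZNF790-AS1 at chr19:36797313-36797612 on the plus strand and ZNF225-AS1 at chr19:44113134-44113433 on the minus strand.
CYP51A1-AS1: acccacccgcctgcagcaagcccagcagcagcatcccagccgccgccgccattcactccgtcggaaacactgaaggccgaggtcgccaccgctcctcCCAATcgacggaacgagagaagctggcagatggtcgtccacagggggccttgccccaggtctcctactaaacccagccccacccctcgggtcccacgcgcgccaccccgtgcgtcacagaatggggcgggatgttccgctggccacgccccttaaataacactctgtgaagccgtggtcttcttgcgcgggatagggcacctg
CYP51A1: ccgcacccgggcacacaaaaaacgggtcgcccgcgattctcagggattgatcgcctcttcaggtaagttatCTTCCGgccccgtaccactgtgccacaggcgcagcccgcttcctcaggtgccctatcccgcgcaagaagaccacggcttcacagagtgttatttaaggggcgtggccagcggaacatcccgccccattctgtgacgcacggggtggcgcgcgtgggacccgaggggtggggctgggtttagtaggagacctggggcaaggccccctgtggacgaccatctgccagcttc
CCDC28A-AS1: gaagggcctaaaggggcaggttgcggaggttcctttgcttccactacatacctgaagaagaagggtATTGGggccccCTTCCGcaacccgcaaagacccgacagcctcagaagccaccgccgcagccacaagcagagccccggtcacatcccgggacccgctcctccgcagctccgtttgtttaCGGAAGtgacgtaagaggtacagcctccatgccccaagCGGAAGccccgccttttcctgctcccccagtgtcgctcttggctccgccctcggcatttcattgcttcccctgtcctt
SPCS3-AS1: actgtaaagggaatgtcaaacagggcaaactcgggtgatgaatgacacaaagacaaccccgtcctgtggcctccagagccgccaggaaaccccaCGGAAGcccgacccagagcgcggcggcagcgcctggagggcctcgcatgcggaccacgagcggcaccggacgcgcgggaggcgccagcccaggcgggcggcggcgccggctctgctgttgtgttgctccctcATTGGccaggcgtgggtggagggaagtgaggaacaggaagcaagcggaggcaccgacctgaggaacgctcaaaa
ZNF790-AS1: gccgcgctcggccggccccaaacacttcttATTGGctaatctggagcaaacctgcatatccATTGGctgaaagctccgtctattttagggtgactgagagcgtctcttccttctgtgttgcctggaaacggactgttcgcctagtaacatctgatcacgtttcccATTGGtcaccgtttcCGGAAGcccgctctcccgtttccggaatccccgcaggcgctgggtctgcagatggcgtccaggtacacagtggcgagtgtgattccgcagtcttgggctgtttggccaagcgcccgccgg
ZNF225-AS1: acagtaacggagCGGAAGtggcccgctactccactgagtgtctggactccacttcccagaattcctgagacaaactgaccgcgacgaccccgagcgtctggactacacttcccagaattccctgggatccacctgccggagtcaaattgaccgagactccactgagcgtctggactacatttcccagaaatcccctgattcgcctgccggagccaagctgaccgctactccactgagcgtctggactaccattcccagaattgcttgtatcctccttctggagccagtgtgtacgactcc

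The windows of CYP51A1-AS1 and CYP51A1 cover the same 185 bases read from opposite strands, and the RefSeq starts of the pair lie within that stretch. The GENCODE start lies 41 bases from the RefSeq start for CYP51A1-AS1 and 326 bases from it for CYP51A1. For CYP51A1 the GENCODE start is outside the window shown. CCDC28A-AS1 shared 165 bases with the window of CCDC28A, and ZNF225-AS1 shared 285 bases with that of ZNF225. SPCS3-AS1 and ZNF790-AS1 shared none with their partner's window. The CCDC28A-AS1 window held 3 ETS cores and 1 CCAAT box, and the ZNF790-AS1 window held 3 CCAAT boxes and 1 ETS core. GC content ran from 56.3% for ZNF225-AS1 to 66.0% for SPCS3-AS1. A match is a run of letters only and says nothing on binding.

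Depth per library was not given in the sources used here. PCIF1 itself was still transcribed, with mean normalized counts of 239 in control against 270 in clone 1 and 239 in clone 2. An edited gene can still be transcribed, and the edited stretch is not given in the sources used here, so PCIF1 is no check of which cells carried the knockout. Of 19 melanocyte and melanoma markers, 3 reached a mean count of 50 (MITF, PAX3 and RAB27A) and 13 were under 10. The pigment enzyme gene TYR was listed at 0 in every group, and SOX10 was at 0 in control and clone 1 and 6.08 in clone 2, so these defining markers were absent or nearly so. The summed level of the 19 markers was 74.0 per kb in control against 83.0 in clone 1 and 97.7 in clone 2. None of 5 leukocyte and none of 4 endothelial markers reached 50, against 2 of 9 fibroblast markers (PDGFRB and THY1) and 2 of 7 epithelial markers (KRT8 and KRT18). The summed level of the 9 fibroblast markers was 30.2, 33.3 and 28.2 per kb in the same order, and that of the 7 epithelial markers 323, 280 and 263 per kb. The part of these marker differences in the results below was not tested.

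Most of the 1742 antisense genes were little transcribed. In this line 485 of them, or 27.8%, were listed at 0 in every group, 613 were above 0 with a mean count under 10, and 299 lay from 10 to under 50. Among the 345 members, 215 had a mean count of at least 100 and 17 of at least 500. The 10 members with the highest mean counts held 17.2% of all counts of the set. Together the members made up 1.66% of the table's summed counts in control against 1.72% in clone 1 and 1.75% in clone 2. None was at 0 in any group.

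At the edge of the floor, the nearest genes outside it were OXCT1-AS1, DEPDC1-AS1, ELFN1-AS1, FAM131B-AS2 and RASSF1-AS1, with mean counts from 48.5 to 49.4. The nearest members inside were COA6-AS1, RBMS3-AS3, MYL6B-AS1, UGDH-AS1 and LENG8-AS1, from 50.3 to 50.7. ELFN1-AS1 had 36.8 counts in control against 72.1 in clone 1 and 39.1 in clone 2. FAM131B-AS2 had 70.7, 52.3 and 25.1 in the same order. Most of the other edge genes were closer to control, such as DEPDC1-AS1 with log2 ratios of 0.12 and 0.03 and UGDH-AS1 with -0.11 and 0.12.

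Levels of different genes are compared per kb of the deposited gene length, the unit of the deposited values. The median member had 50.6 normalized counts per kb in control against 57.9 in clone 1 and 59.1 in clone 2. The 10128 protein-coding genes above the same floor had medians of 36.5, 36.4 and 36.8. The floor is set on counts, so a shorter gene needs a higher level per kb to pass it, and these medians are not adjusted for length. Members were shorter than their partners, with a median deposited length of 2493 bases against 6010.5, and 53 of them had 1 exon. DLGAP1-AS2, on chromosome 18 inside the gene of the postsynaptic scaffold DLGAP1, had the highest level in control, 731 per kb, against 452 in clone 1 and 360 in clone 2. The highest mean level over the groups was that of ARF4-AS1, which shares its 5′ end with the gene of the small GTPase ARF4, at 514, 730 and 954 per kb. ROPN1L-AS1 followed at 437, 753 and 881, NARF-AS2 at 541, 575 and 603, and KMT2E-AS1 at 601, 512 and 536. ZBED9-AS1, ENO1-AS1, BCAN-AS2, MYL12-AS1 and JARID2-AS1 completed the first 10, and their control levels ran from 268 to 477 per kb. ARF4-AS1 and ROPN1L-AS1, with the highest values in clone 2, have deposited lengths of only 597 and 189 bases. In the GENCODE annotation ROPN1L-AS1 has 1 exon and spans 844 bases, so its deposited length does not match that annotation. Its level per kb and its place among the highest members depend on the deposited length, and would be lower over the annotated exon.

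Of the 345 members, 338 had a partner of that name in the table, and 334 of these partners were protein-coding. The other 7, such as HOXA-AS2, HOXB-AS1 and HOXD-AS2 of the HOX clusters, are named after a cluster or a symbol that the annotation does not hold. In GENCODE 44, 164 members overlapped their partner at the 5′ ends and 69 at the 3′ ends. Another 57 lay inside the partner's span, 28 spanned the whole partner, and 20 lay head to head without overlap. In 106 pairs the starts were within 1 kb of each other. Exons overlapped within 265 pairs. Of all members, 294 had some exon bases under an opposite-strand exon of any gene and 30 had at least 50% there. Whether reads were assigned by strand is not given in the sources used here, and without strand the reads of 2 overlapping genes cannot be told apart. A description bearing on this is that, of 847 genes in the table with every exon base under opposite-strand exons, 330 were above 0 in control and 26 reached a mean count of 50. Of all 58336 genes in the table, 11917 reached that count and 40.3% were at 0 in every group. Strand assignment itself was not tested.

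Per kb, the antisense gene was more often the higher of the pair. Its level was above its partner's in 216 of 338 pairs in control against 229 in clone 1 and 230 in clone 2. The median log2 level of member over partner was 0.78 in control against 0.91 in clone 1 and 0.94 in clone 2. Since members were selected on their own count and partners were not, and members were shorter, this direction is partly fixed by the choice. The median in control was 0.37 for pairs overlapping at the 5′ ends, 0.83 for head-to-head pairs, 1.26 for pairs overlapping at the 3′ ends, 1.53 for members inside their partner and 2.69 for members that span it. Pairs with starts within 1 kb had a median of 0.60 and those farther apart 1.02. Across the 338 pairs, the log levels of member and partner had a Pearson r of 0.18 and a Spearman rho of 0.20 in control, a description over genes that share the same libraries. Some members were well transcribed beside a nearly silent partner. DLGAP1 had 1.09 counts in control against 2318 for DLGAP1-AS2, and BCAN, which encodes the matrix proteoglycan brevican, had 2.96 against 304 for BCAN-AS2. In all, 29 members had a partner with a mean count under 10.

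**Figure D1:**
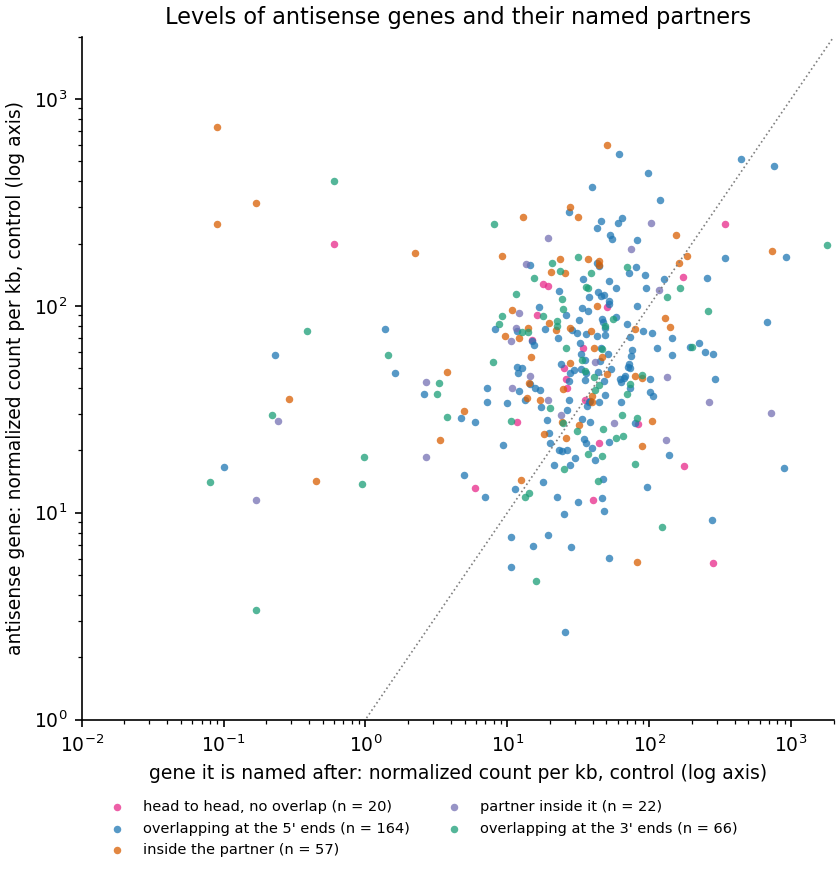
Level of each antisense gene (vertical, normalized count per kb, control, log axis) against its partner (horizontal, same unit and axis type) for the 329 pairs whose partner was above 0 in control, coloured by arrangement, with a dotted line of equal level. Points lie mostly above the line, and the points far to the left are members beside partners with almost no signal.

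The set as a whole was slightly higher in both clones. Log2 ratios were taken on mean normalized counts with a pseudocount of 1, which understates the change of low genes. The median log2 ratio of the 345 members was 0.08 in clone 1 against control and 0.14 in clone 2 against control, and 60.6% and 66.4% of members were above 0. The medians of all 11917 genes above the floor were -0.003 and 0.006, with 49.4% and 50.9% above 0. The 283 partners above the floor had medians of -0.02 and -0.03. All 1389 long noncoding genes above the floor, members included, had medians of 0.06 and 0.11. The 242 named as divergent transcripts (-DT) had 0.12 and 0.24, and the 119 named LINC and digits 0.13 and 0.11. The small classes of intronic (-IT, 5 genes) and overlapping (-OT, 3 genes) transcripts had negative medians, -0.14 and -0.26, and -0.04 and -0.34. The members' medians are small beside their own spread, since the quartiles of the members ran from -0.11 to 0.29 in clone 1 and from -0.11 to 0.43 in clone 2. By depth, the medians were 0.09, 0.08 and 0.06 in clone 1 for members with mean counts of 50 to 100, 100 to 200 and at least 200, and 0.14, 0.11 and 0.16 in clone 2. For all genes, the same classes had medians between -0.008 and 0.02. Because the control mean enters both comparisons, the 2 medians are not independent of each other.

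**Figure D2:**
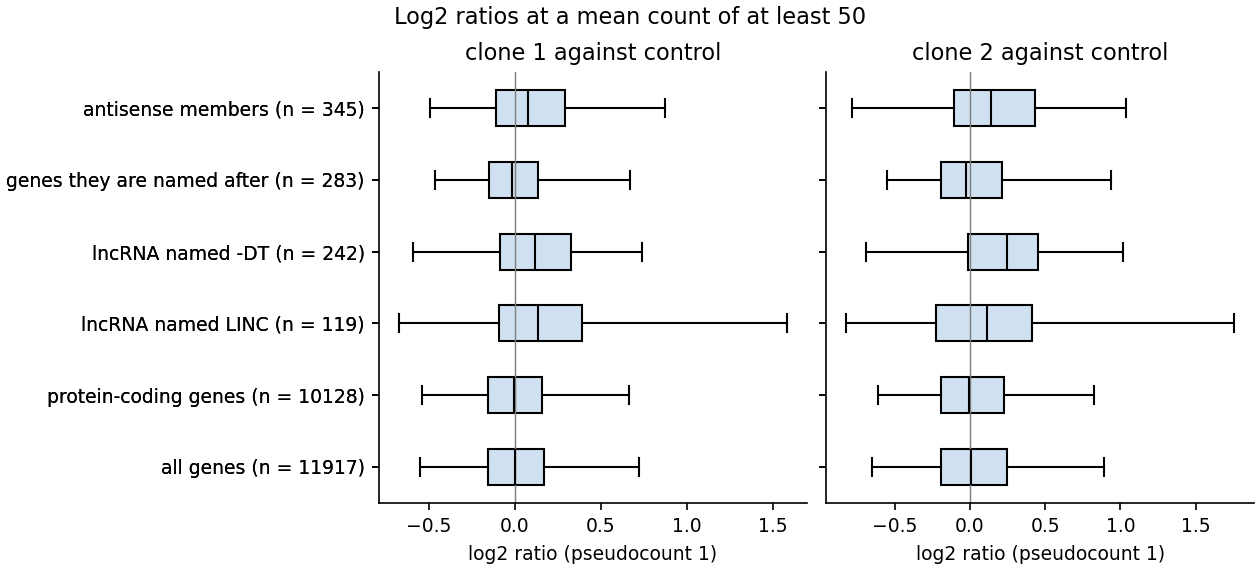
Log2 ratios of clone 1 and clone 2 to control (horizontal, pseudocount 1) for 6 sets of genes above the floor of 50 mean counts. The line in each box is the median, the box spans the quartiles, and the whiskers reach from the 2.5th to the 97.5th percentile of genes; the antisense members' medians are 0.08 and 0.14, against -0.02 and -0.03 for the genes they are named after.

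Past 2-fold, 5 members were higher and 1 was lower in clone 1 than in control. Over all genes above the floor, 0.999% passed 2-fold upward and 0.428% downward in that comparison. In clone 2, 11 members passed 2-fold upward, beside 1.79% of all genes, and 4 downward, beside 0.671% of all genes. At 1.5-fold, 33 members were higher and 5 lower in clone 1, where the shares over all genes were 4.22% and 2.27%. In clone 2, 50 were higher and 14 lower, beside 7.33% and 3.47% of all genes. As shares of the 345 members, the 1.5-fold counts in the higher direction were 9.57% in clone 1 and 14.5% in clone 2. Among all 1389 long noncoding genes above the floor the same shares were 8.93% and 12.9%, and among the -DT genes 9.50% and 16.9%. At 2-fold, 1.45% and 3.19% of members were higher, against 1.87% and 3.60% of all long noncoding genes. The difference between these sets was not tested. Members were picked on the mean of the 3 groups, so a gene under 50 in control could enter through high values in the clones. Those named below that did so include CYP51A1-AS1, ZNF790-AS1, CALCRL-AS1, JMJD1C-AS1, OXR1-AS1, STIM2-AS1, MEF2C-AS1, ILVBL-AS1 and ZNF516-AS1. Their high ratios to control are thus partly favoured by the choice. With a floor of 100, 1 member in clone 1 and 2 in clone 2 were at least 2-fold higher than control.

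CYP51A1-AS1, beside the cholesterol synthesis enzyme gene CYP51A1, had mean counts of 20.5 in control against 67.8 in clone 1 and 66.8 in clone 2. Both clones were thus more than 3 times the control, with log2 ratios of 1.68 and 1.66. CYP51A1 itself had 62.3, 129 and 159 counts, log2 ratios of 1.03 and 1.33. This pair lies on chromosome 7 with GENCODE starts 199 bases apart, and 32.2% of the exon bases of CYP51A1-AS1 lie under exons of the other strand. The annotations differ here: the genes overlap from their GENCODE starts but run apart without overlap from the RefSeq starts used for the windows. The 20 nearest protein-coding genes, with CYP51A1 left out, had median log2 ratios of 0.08 and -0.05, so the high values were not shared by the region.

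ZNF790-AS1, on chromosome 19 and overlapping the 3′ end of the zinc finger gene ZNF790, had 37.3, 106 and 119 counts. Its log2 ratios were 1.48 and 1.65, against 0.24 and 0.36 for ZNF790, and only 0.75% of its exon bases are under opposite exons. ZNF225-AS1, at the 5′ end of another zinc finger gene, had 79.2, 179 and 147 counts, while ZNF225 had 250.3, 256 and 244. In both pairs the antisense gene was far above control in both clones and the partner was within 1.5-fold of it.

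CALCRL-AS1, which spans the gene of the calcitonin receptor-like receptor, had 40.6 counts in control against 83.0 in clone 1 and 80.8 in clone 2, with CALCRL at 1.47, 2.76 and 7.50. SPCS3-AS1, at the 5′ end of a signal peptidase subunit gene, had 127, 243 and 225 counts, with SPCS3 at 562, 526 and 535. CCDC28A-AS1 runs head to head with the coiled-coil gene CCDC28A from a start 117 bases away and overlaps no opposite-strand exon. It had 82.1, 142 and 172 counts, while CCDC28A had 17.7, 14.6 and 13.6. CFLAR-AS1, inside the gene of the apoptosis inhibitor CFLAR on chromosome 2, had 303, 564 and 448 counts. CFLAR itself had 273, 435 and 406 counts, and the 20 nearest genes had median log2 ratios of 0.62 and 0.59, about as large as those of the member (0.89 and 0.56).

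Several members were highest in clone 2. JMJD1C-AS1, inside the gene of the histone demethylase family protein JMJD1C on chromosome 10, had 36.9 counts in control against 52.1 in clone 1 and 98.4 in clone 2. JMJD1C had 1166, 1447 and 2236 counts, and the 20 nearest genes had median log2 ratios of 0.17 and 0.63. ITGB2-AS1, inside the leukocyte integrin gene ITGB2, had 54.9, 91.2 and 133 counts and ITGB2 22.8, 57.8 and 97.1, so both members of that pair were ordered control, clone 1, clone 2. STIM2-AS1, at the gene of a calcium sensor of the endoplasmic reticulum, had 44.6, 71.7 and 104 counts. OXR1-AS1, inside the oxidation resistance gene OXR1, had 39.5, 70.6 and 104 counts, with 196, 202 and 241 for OXR1. MEF2C-AS1 was high in clone 1 and near control in clone 2, at 42.8, 82.2 and 50.7 counts, although its partner, the transcription factor gene MEF2C, was high in both clones at 126, 281 and 287.

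**Figure D3:**
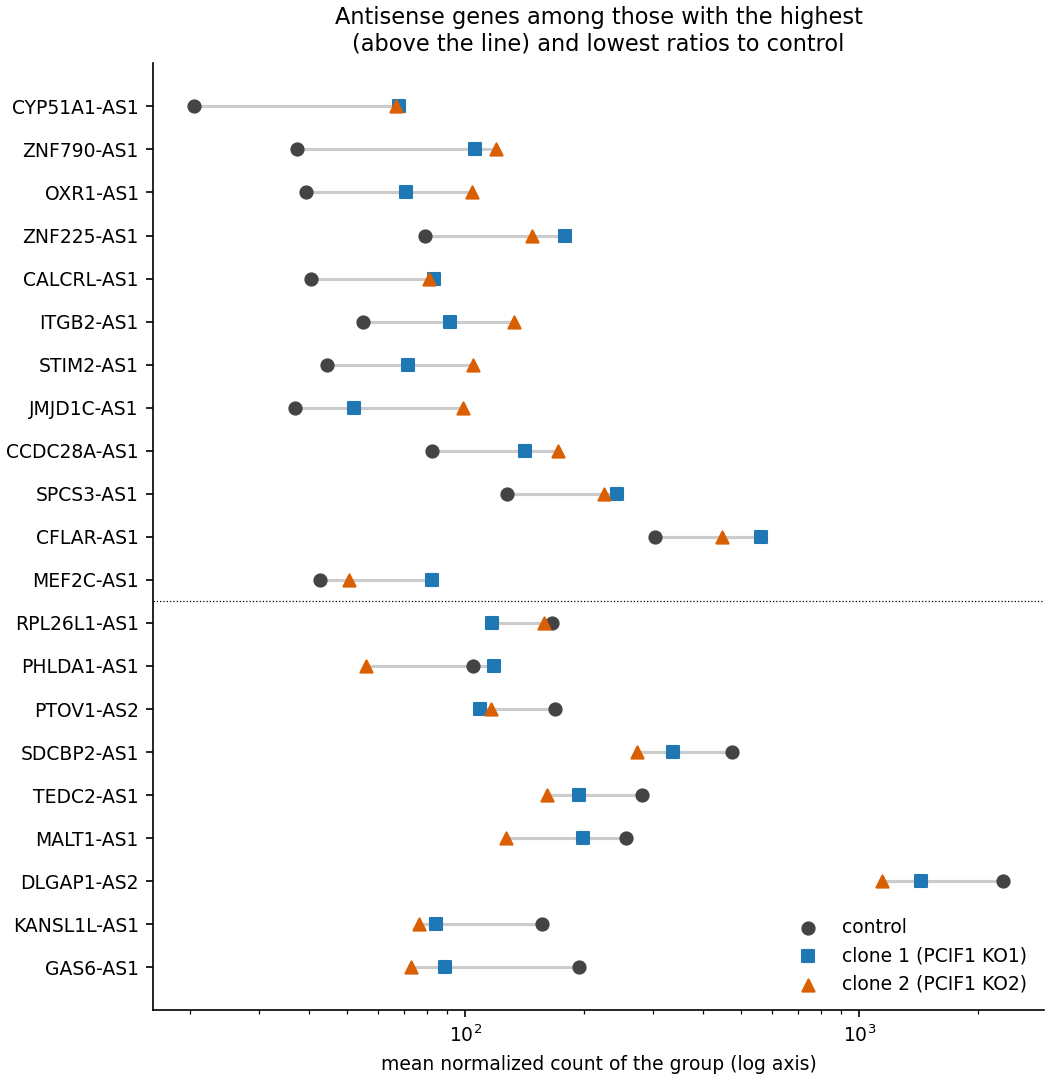
Mean normalized count of each group (horizontal, log axis) for members named in the text from among the 8 highest and the 8 lowest log2 ratios to control in either clone, the highest above the dotted line. Circles are control, squares clone 1 and triangles clone 2; each point is 1 group mean with no error, and GAS6-AS1 in the bottom row runs from 194 in control to 72.6 in clone 2.

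On the lower side, GAS6-AS1 was the member furthest below control in both clones. It overlaps the 3′ end of GAS6, the gene of a ligand of the TAM receptor kinases, on chromosome 13, and had 194 counts in control against 88.7 in clone 1 and 72.6 in clone 2. Its log2 ratios were -1.12 and -1.41, while GAS6 was above control in both clones, with 149 counts in control, 208 in clone 2 and log2 ratios of 0.42 and 0.48. The 20 nearest genes had medians of -0.04 and -0.14. KANSL1L-AS1, inside KANSL1L on chromosome 2, had 157, 84.0 and 76.1 counts, and here the partner was lower as well, at 81.3, 41.8 and 42.2 counts.

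Lower members also came in groups by place. DLGAP1-AS2 had 2318 counts in control against 1432 in clone 1 and 1140 in clone 2, and MYL12-AS1, also on the short arm of chromosome 18, had 498, 381 and 388. The 20 protein-coding genes nearest to each had median log2 ratios of -0.53 in both clones, against -0.69 and -1.02 for DLGAP1-AS2 and -0.39 and -0.36 for MYL12-AS1. SDCBP2-AS1 on chromosome 20 had 474, 336 and 272 counts, log2 ratios of -0.50 and -0.80, beside neighbour medians of -0.73 and -0.68. MALT1-AS1, at the 5′ end of the paracaspase gene MALT1, had 255, 199 and 126 counts with neighbour medians of 0.002 and -0.11. TEDC2-AS1 had 281, 194 and 161 counts, PTOV1-AS2 169, 109 and 116, and RPL26L1-AS1 166, 117 and 158, the last being near control in clone 2.

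Between the clones, no member was at least 2-fold higher in clone 2 than in clone 1, where 0.336% of all genes were, and 1 was at least 2-fold lower, where 0.201% were. That member was PHLDA1-AS1, at 105 counts in control against 118 in clone 1 and 56.0 in clone 2, inside PHLDA1, a pleckstrin homology-like domain gene with 5901, 5208 and 4414 counts. Of its exon bases 97.2% lie under opposite exons. The next lowest in clone 2 against clone 1 were F11-AS1, PARD6G-AS1, MYADM-AS1 and MEF2C-AS1, with log2 ratios from -0.91 to -0.69. The highest were ACVR2B-AS1 at 0.91, JMJD1C-AS1 at 0.90, SGMS1-AS1, PANK1-AS1 and ARHGAP5-AS1. Of these, ACVR2B-AS1 lies on chromosome 3, and JMJD1C-AS1, SGMS1-AS1 and PANK1-AS1 on chromosome 10. The difference between the 2 knockout clones is the only spread these data allow. For all genes with mean counts of 50 to 100, 95% of log2 ratios of clone 2 to clone 1 lay between -0.60 and 0.69, for members of that depth between -0.68 and 0.76, and for all genes from 200 to 1000 counts between -0.35 and 0.53.

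The question for each pair was whether the antisense gene and the gene it is named after moved together. In 285 pairs both were above the floor. The partner's floor was also set on the mean of the 3 groups, so a partner low in control could enter through the clones. The member's log2 ratio was above its partner's in 181 pairs in clone 1 and 176 in clone 2 against control, and the median difference was 0.11 and 0.14. In 251 and 236 of these pairs, 88.1% and 82.8%, the ratios of member and partner were within 1.5-fold of each other. These shares are near those of members within 1.5-fold of control itself, 89.0% and 81.4%, so they say little about joint movement. A member moved at least 2-fold above its partner in 5 pairs and at least 2-fold below it in 3 pairs, in each clone. Of 34 members past 1.5-fold in clone 1, 8 had a partner past 1.5-fold in the same direction, and of 51 in clone 2, 12 had. Over all 283 partners above the floor, 9 were at least 1.5-fold higher and 6 lower in clone 1, and 16 and 7 in clone 2. No pair had both past 1.5-fold in opposite directions in any of the 3 comparisons. In clone 2 against clone 1 the median difference was 0.04, and 97.5% of pairs stayed within 1.5-fold.

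**Figure D4:**
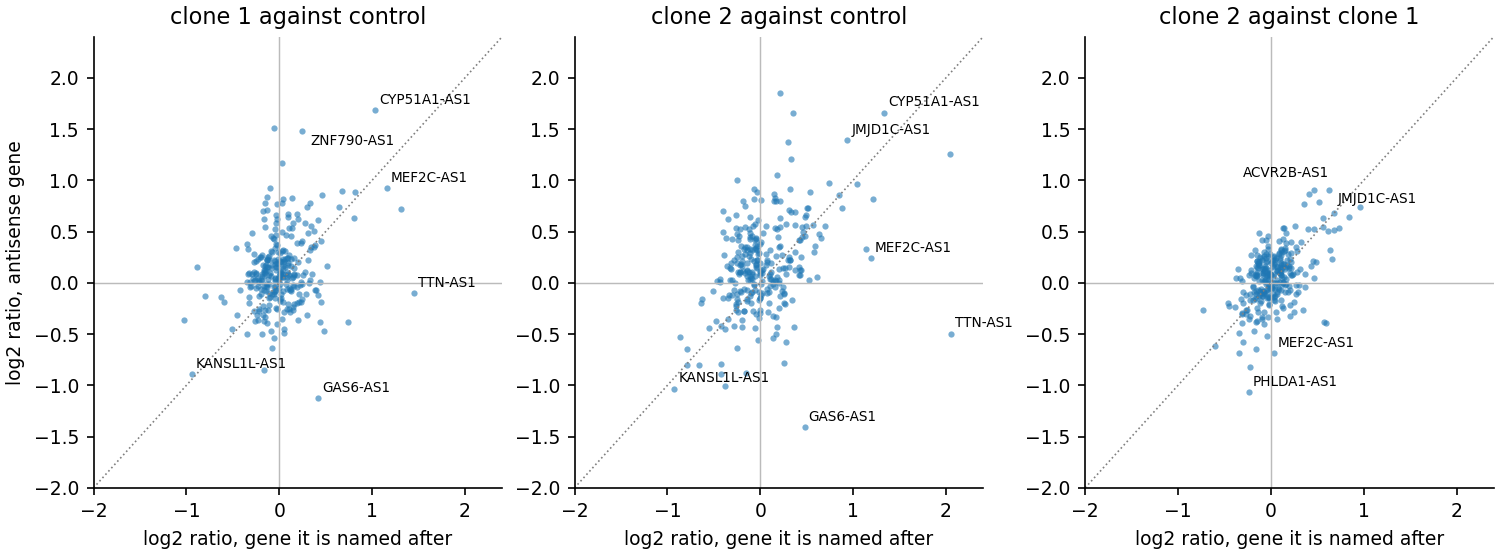
Log2 ratio of the antisense gene (vertical) against that of the gene it is named after (horizontal) for the 285 pairs with both above the floor, in each of 3 comparisons, with a dotted line of equal ratio. KANSL1L-AS1 lies near the line with its partner, CYP51A1-AS1 lies above the line beside a partner that is high too, ZNF790-AS1 lies well above it in clone 1, and GAS6-AS1 and TTN-AS1 below it.

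As a description over genes of the same libraries, the log2 ratios of member and partner had a Pearson r of 0.30 in clone 1, 0.40 in clone 2 and 0.52 in clone 2 against clone 1, with Spearman rho of 0.20, 0.34 and 0.43. In 246 pairs the nearest other gene was above the floor as well. There r was 0.28, 0.36 and 0.53 with the partner and 0.11, 0.27 and 0.37 with that nearest other gene, while rho was 0.23, 0.32 and 0.42 with the partner and 0.15, 0.36 and 0.29 with the other gene. By size of difference the partner was about as close as the other gene. The median absolute difference was 0.243, 0.285 and 0.173 to the partner and 0.234, 0.280 and 0.163 to the nearest other gene, and 133, 121 and 122 of the 246 members were closer to the partner. For the 48 of these pairs whose exons do not overlap, r with the partner was 0.50, 0.59 and 0.73, against 0.23, 0.25 and 0.32 with the nearest other gene. Since the counted feature is not known, such pairs may still share reads, and the part of shared reads in the likeness was not tested. Members inside their partner had r of 0.45, 0.55 and 0.72 over 50 pairs, members overlapping at the 5′ ends 0.31, 0.47 and 0.54 over 153, and members overlapping at the 3′ ends 0.16, 0.07 and -0.02 over 53. Head-to-head pairs, 17 with both above the floor, had the largest median difference between member and partner, 0.27 in clone 1 and 0.42 in clone 2. The differences between these classes were not tested.

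The pairs furthest apart included well-known genes. TTN-AS1, at the 3′ end of the gene of the muscle protein titin, had 70.0 counts in control against 65.1 in clone 1 and 49.4 in clone 2, while TTN had 20.2, 57.1 and 86.9. TTN passed the floor only through its values in the clones, so the size of this difference is partly favoured by the choice. KCNJ2-AS1 had 94.8, 72.5 and 63.3 counts, and the potassium channel gene KCNJ2 67.1, 113 and 81.7. Also far below their partner were MMP25-AS1 and HERPUD2-AS1 in clone 1 and PHC2-AS1 and C10orf95-AS1 in clone 2. C10orf95-AS1 had 257, 225 and 322 counts beside 195, 268 and 430 for C10orf95. On the other side, ROPN1L-AS1 had 82.6, 142 and 167 counts with 178, 159 and 149 for ROPN1L, and ZNF516-AS1 had 48.9, 54.6 and 77.8 with 139, 75.3 and 116 for ZNF516. TM4SF19-AS1, CLIP1-AS1 and ILVBL-AS1 were also far above their partners, with log2 ratios of 0.83 in clone 1, 0.70 in clone 2 and 0.79 in clone 2.

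Part of the members' values moved with their region. For each member the median log2 ratio of the 20 nearest protein-coding genes was taken, leaving out the partner. That median was at least 0.25 in size for 11 members in clone 1, of which 9 had the same sign as their neighbours, and for 48 members in clone 2, of which 43 had. Over the 345 members, r between member and neighbourhood was 0.25 in clone 1, 0.39 in clone 2 and 0.40 in clone 2 against clone 1. On chromosome 3 the 33 members had median log2 ratios of 0.22 in clone 1 and 0.43 in clone 2, with neighbour medians of 0.04 and 0.27. On chromosome 10 the 18 members had -0.02 and 0.40, with 0.06 and 0.41 for their neighbours. Other chromosomes did not follow this, since the 7 members on chromosome 8 had 0.35 and 0.62 beside neighbours at 0.07 and 0.10, and the 8 on chromosome 21 had 0.23 and 0.32 beside -0.10 and -0.09. After the neighbourhood median was subtracted, the members' medians were 0.10 and 0.13, and 4 members in clone 1 and 12 in clone 2 were at least 2-fold higher, with 1 lower in each. Without the members in shifted regions of either clone, 2 members were at least 2-fold higher in clone 1 and 6 in clone 2, and the medians over the 297 members left stayed positive.

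**Figure D5:**
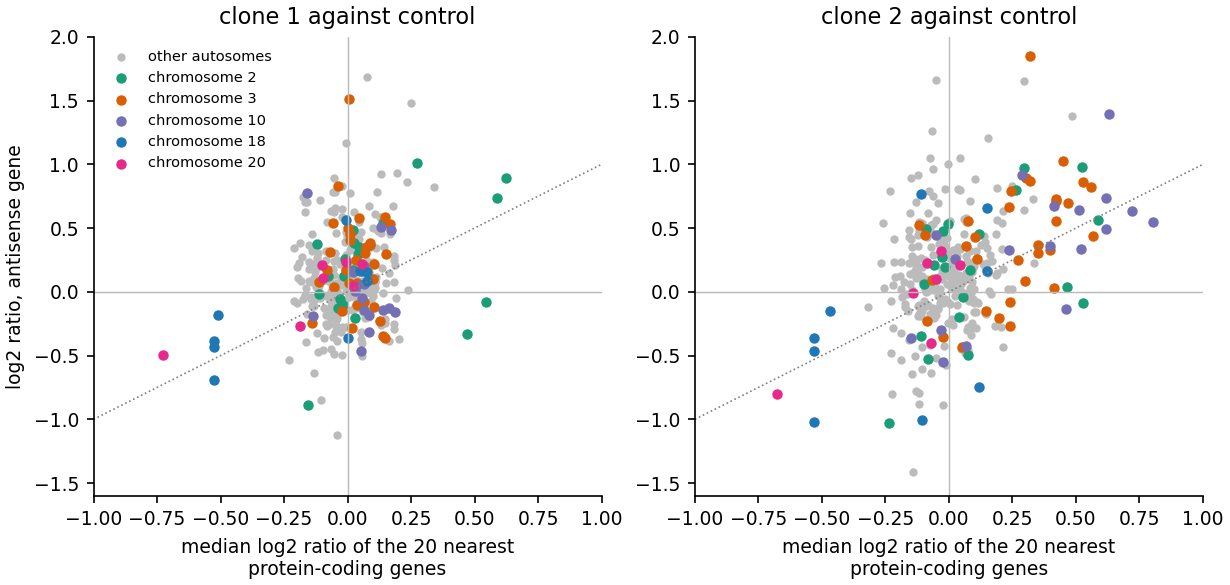
Log2 ratio of each of the 345 antisense genes to control (vertical) against the median log2 ratio of its 20 nearest protein-coding genes (horizontal), in clone 1 and clone 2, with chromosomes 2, 3, 10, 18 and 20 coloured and a dotted line of equal value. In clone 2 the members on chromosomes 3 and 10 extend to the right and upward, and 4 members on chromosome 18 in clone 1 lie at the lower left.

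Of 56 well-studied antisense and related RNAs on a separate list, 53 were in the table, 25 had a mean count of at least 50, and 18 were under 10. CDKN2B-AS1, the antisense RNA of the CDKN2A and CDKN2B tumour suppressor locus, had 9.39 counts in control against 14.0 in clone 1 and 11.0 in clone 2. FOXD3-AS1 had 2.15, 2.23 and 4.78. Of the 25, 2 were at least 1.5-fold higher and 1 lower in clone 1, and 3 and 2 in clone 2, where the shares over all genes were those given above (4.22% and 2.27%, then 7.33% and 3.47%). OIP5-AS1 had 364, 377 and 354 counts, MAGI2-AS3 398, 388 and 399.9, and SLC16A1-AS1 593, 598 and 599.9. The median log2 ratio of the 25 was 0.01 in clone 1 and -0.01 in clone 2. Past 2-fold were GAS6-AS1, lower in both clones, and ITGB2-AS1 and SNHG14, higher in clone 2. SNHG14, the long host gene of the imprinted SNORD115 and SNORD116 snoRNAs and the antisense transcript of UBE3A, had 256, 469 and 568 counts. KCNQ1OT1, the imprinted antisense RNA of KCNQ1, had 887, 735 and 662. These last 2 are not members, since their symbols do not follow the naming rule.

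Members named after zinc finger genes were mostly above control. The 19 of them had median log2 ratios of 0.22 in clone 1 and 0.54 in clone 2, with 16 above 0 in each clone and ranges of -0.25 to 1.48 and -0.26 to 1.65. In 17 of these pairs the partner was above the floor too. The partners had medians of 0.05 and 0.16, and the member was above its partner in 13 pairs in clone 1 and 15 in clone 2. The 11 members named after homeobox and other developmental transcription factor genes had medians of -0.001 and 0.008. Among these, HOXD-AS2 had 71.3, 104 and 125 counts, while HOXB-AS1 had 119, 134 and 120 and HOXA-AS2 162, 139 and 171. The 60 listed genes whose products end, bind or degrade unstable noncoding transcripts, among them exosome, Integrator and cleavage factor subunits, were all above the floor. None of the 60 was 1.5-fold away from control in either clone, and their medians were -0.003 and 0.06. Over all genes above the floor, 4.22% were at least 1.5-fold higher and 2.27% lower in clone 1, and 7.33% and 3.47% in clone 2. Those shares were not matched to the 60 genes by level, and the difference was not tested.

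Promoter windows were found for 273 of the 345 members and for 282 of the partners. The median GC content was 64.3% in members, 65.2% in partners and 58.3% in all 27303 promoters of the table. The ratio of observed to expected CpG was at least 0.6, a usual mark of CpG islands, in 75.5% of members, 78.4% of partners and 49.0% of all promoters. TATAAA on either strand occurred in 5.86% of members, 7.09% of partners and 11.95% of all promoters, CCAAT in 31.9%, 31.2% and 35.7%, and CGGAAG in 30.04%, 28.4% and 19.9%. TCACNCCAC occurred in 2.20%, 0.35% and 1.15%. Members' promoters thus resembled their partners' in base content. Among 239 pairs with both windows, 53 shared bases, which fixes part of that likeness. The protein-coding genes above the floor were close to them in GC content, at 65.3%, with 86.8% at that CpG ratio and 36.2% holding CGGAAG. All long noncoding genes above the floor, members included, had 65.2%, 76.4% and 29.6% in the same order, so the likeness was not particular to the pairs.

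Downstream of the start, sequence differed more. In the first 1000 bases of the gene, a splice donor-like GTAAGT or GTGAGT on the gene's strand occurred in 35.7% of members, 48.5% of partners and 36.7% of all long noncoding genes above the floor. The polyadenylation signal AATAAA occurred in 27.0% of members, 20.7% of partners, 18.6% of protein-coding genes and 33.8% of long noncoding genes above the floor. Where the starts of a pair were within 1 kb, the donor motif occurred in 31.1% of members and 50.0% of partners, and AATAAA in 27.4% and 11.3%. Splice donors near the start are known to favour elongation and early polyadenylation signals to end transcription, as background. In these pairs the members' median log2 ratio was 0.05 in clone 1 and 0.15 in clone 2, against -0.01 and -0.05 for their partners, beside 0.09 and 0.13 for members whose starts were farther away.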

How the data were processed

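PRO-seq libraries of 9 MEL624 samples were analysed as 3 groups (control, clone 1, clone 2) from 1 table of the whole series. The deposited values are a signal, the authors' mean normalized count per kb of each group, per the file headers, with a gene length column; how many reads stood behind each library is not given in the sources used here, and neither are the counted feature, the strand setting and the use of the Drosophila reads. Cutadapt 1.14, Bowtie 1.2.2, featureCounts and DESeq2, and the builds hg38, dm3 and GRCh38.p12, are named in the submitters' processing notes. The header has 6 names for rows of 5 cells, since the gene symbol cell is missing, so the last 3 names were read as the last 3 cells, and symbols were taken from GENCODE 44 by gene ID. No per-sample column was left unused (0).

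Here each value was multiplied by the deposited length in kb, which equalled the merged exon length of GENCODE 44 for 64.4% of matched genes; 582 of 58336 rows had no match. Log2 ratios used a pseudocount of 1. With 1 mean per group no p could be had, so members past 2-fold or 1.5-fold are counted beside the same share over all genes above the floor, a mean count of 50 or more. Without replicate values, precision is unknown. A partner is the gene whose symbol is left after -AS and the number are removed.

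The members, gene lists and comparisons were chosen with earlier results of these data known. Named members were those with the 10 highest levels, the 8 highest and 8 lowest log2 ratios per clone, the 5 highest and 5 lowest between clones, the 6 pairs most apart in each direction per clone, the 5 genes on each side of the floor and measured genes of the lists. Some members that this rule names are not reported here. The alternatives were other pseudocounts (0.5 and 5), rescaling, floors of 20 and 100, values per kb, members without opposite exons, and neighbourhood centring. The 1.5-fold counts and the set without shifted neighbourhoods were added after seeing the data. Promoter sequences came from RefSeq (GRCh38.p14). The scripts ran in Python 3.11.15 with scipy 1.17.1, pandas 2.3.3, numpy 2.4.6 and, for plots, matplotlib 3.10.9, and were tested on simulated data.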

Additional observations from a re-analysis of the deposited data

How the results depend on the processing

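No paired analysis was possible because the table holds 1 mean per group, so neither the replicate block nor leaving out a replicate could be run. Of 172 alternatives, 133 stayed within the limits set for each value and 39 moved, and none reversed a sign. Against the median of all genes, the members' median stayed higher by 0.068 to 0.158 in clone 1 and by 0.103 to 0.205 in clone 2 under every alternative run. The 51 members with no exon under an opposite-strand exon had medians of 0.155 and 0.211 against control (clone 1, clone 2), and their 41 pairs had differences from the partner of 0.259, 0.306 and, for clone 2 against clone 1, 0.016. In that set 9 members were at least 1.5-fold higher and 1 lower in clone 1, 12 and 4 in clone 2, and at 2-fold 0 and 0 in clone 1, 4 and 1 in clone 2, with 0 lower in clone 2 against clone 1. Quantile normalization gave a median of 0.048 for clone 2 against clone 1. With a floor of 20 (519 members), 60 members were at least 1.5-fold higher and 18 lower in clone 1, 87 and 35 in clone 2, and at 2-fold 13 and 4, 22 and 12, and 4 and 4 between the clones. With a floor of 100 (215 members), 16 and 25 were at least 1.5-fold higher, 1 and 2 past 2-fold upward, and 0 past 2-fold downward in clone 2 against clone 1. Without members in shifted neighbourhoods (297 left), 28 were at least 1.5-fold higher in clone 2, and 2 (clone 1) and 6 (clone 2) were past 2-fold upward. In clone 2, 1 member was at least 2-fold lower after the neighbourhood was subtracted, and 2 with a pseudocount of 5. The log2 level of member over partner was 1.221, 1.498 and 1.757 in control, clone 1 and clone 2 without pairs whose exons overlap, and 0.477 in control with a floor of 20. The set without opposite exons and the floors change which genes are used and how many are counted. The cause of the moves in the medians, and of the other moves, was not tested. Only an average depth is given and there are no replicate values, so the error of any single ratio is unknown.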
